A study of Mus musculus with 6 samples.

Results

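The genes described here are 9 transcription factors that set and maintain the identity of barrier endothelial cells (ECs), namely the forkhead genes Foxf2, Foxq1 and Foxc1, the SOXF genes Sox7, Sox17 and Sox18, and the ETS genes Erg, Fli1 and Ets1. They were chosen by name for this known role, with earlier results of these data known but not by a measured value of theirs, and all 9 were found among the 56748 genes of the count table. The values come from RNA-Seq of ECs sorted from the spinal cord of P16 mice, with 3 control mice and 3 TDP-43 iΔEC mice, and each mouse gave 1 library. TDP-43 iΔEC mice had the genotype Cdh5(PAC)-CreERT2;Tardbpflox, in which a tamoxifen-inducible Cre driven by the promoter of Cdh5, the gene of VE-cadherin, removes a loxP-flanked exon of Tardbp in ECs. Control mice had the genotype Tardbpflox, so they carried the same floxed allele but no Cre. Mice of both groups were on a C57BL/6 background and received tamoxifen (1 mg/mL) from P5 to P7. The controls therefore share the drug with the deleted mice and lack the Cre, so an effect of Cre itself and an effect of the deletion cannot be told apart.

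Endothelial identity rests on a small number of transcription factor families that act together on shared enhancers. ETS factors occupy the regulatory elements of nearly all endothelial genes, SOXF factors are needed for vascular development and for arterial fate, and forkhead factors of the F, Q and C classes are enriched in vessels of the CNS, where Foxf2 and Foxq1 are among the best known markers of blood-brain barrier endothelium. SOXF factors are also known to act with Wnt/β-catenin signaling in CNS vessels, the pathway for which the study collected these libraries. TDP-43 is an RNA-binding protein of the nucleus that prefers UG-rich RNA and controls splicing and stability of its targets.

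The 6 libraries summed to between 25704871 and 47270654 counts, and the smallest totals were those of TDP-43 iΔEC mice 2 and 3. The smallest level that 3 counts can show was 0.0635 to 0.117 CPM (counts scaled by the library total), which covers counting error only and lies far below every member, since the members had 562 to 18391 counts in each library. Tardbp had 1973, 2282 and 2069 normalized counts (counts divided by the size factor of the library, given here and below in the order of mice 1, 2 and 3) among controls, against 982, 599.9 and 433 in TDP-43 iΔEC mice 1, 2 and 3. All 3 TDP-43 iΔEC values lay below all 3 control values, although the whole-gene count includes exons outside the deleted part, 33.1% of the exonic sequence overlaps Masp2 on the opposite strand, and the log2 fold change of -1.62 (SE 0.41) did not pass the threshold of 0.05 in limma (adjusted p = 0.287) or edgeR (0.373) and passed it in DESeq2 (0.0221). The 5 endothelial markers (Pecam1, Cldn5, Kdr, Flt1 and Vwf) had counts in every library and summed to 8948 to 12720 CPM in control and 8997 to 11421 CPM in TDP-43 iΔEC mice. Red blood cell genes summed to 6336 to 9759 CPM in control and 2197 to 2909 CPM in TDP-43 iΔEC mice, without overlap, and the values with hemoglobin genes left out are given beside the SOXF genes. Control mouse 2 had the fewest genes with a count (12972, against 14103 to 16557 in the other 5 libraries). The 4 astrocyte markers summed to 5.25 to 20.7 CPM in control and 0 to 27.7 CPM in TDP-43 iΔEC libraries, the 4 neuron markers to 0.341 to 9.40 and 0.567 to 1.95 CPM, and the 4 oligodendrocyte markers to 90.2 to 190.0 and 0.856 to 223 CPM. In bulk libraries of this kind, fewer cells of a type and less RNA per cell cannot be told apart.

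Because TDP-43 prefers UG repeats, the genomic sequence of the 9 genes (GRCm39, sense strand, exons and introns) was searched for runs of at least 6 consecutive TG units, written as UG in the RNA. Erg held 46 such runs, Fli1 25, Ets1 12 and Foxf2 2, and Foxq1, Foxc1, Sox7, Sox17 and Sox18 held 0. The longest run of each gene that has any (for Ets1, the first of the runs of equal length) is printed below on the strand of the gene with 15 flanking bases on each side, with the run in capitals, because UG repeats are the kind of sequence TDP-43 is known to bind. Erg and Fli1 hold further runs longer than those printed for Ets1 and Foxf2.
Erg: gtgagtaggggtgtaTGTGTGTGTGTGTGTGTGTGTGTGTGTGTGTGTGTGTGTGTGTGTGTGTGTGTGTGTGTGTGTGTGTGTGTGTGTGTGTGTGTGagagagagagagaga
Fli1: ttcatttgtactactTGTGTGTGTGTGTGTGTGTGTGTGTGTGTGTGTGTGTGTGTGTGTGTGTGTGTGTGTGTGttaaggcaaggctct
Ets1: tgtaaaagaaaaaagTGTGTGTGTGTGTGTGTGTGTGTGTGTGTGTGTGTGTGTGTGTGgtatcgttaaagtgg
Foxf2: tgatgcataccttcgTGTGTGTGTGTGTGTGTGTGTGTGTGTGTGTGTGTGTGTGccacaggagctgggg
The run in Erg is 84 bp long (chr16:95304865-95304948, minus strand), that in Fli1 60 bp (chr9:32449355-32449414, minus strand), that in Ets1 44 bp (chr9:32614420-32614463, plus strand) and that in Foxf2 40 bp (chr13:31812259-31812298, plus strand). All 4 lie in introns, and the capitals differ in length only. A further run of 36 bp lies in an exon of Foxf2 (chr13:31814975-31815010) and 1 of 20 bp in an exon of Ets1 (chr9:32667789-32667808), and 22.23% of all 11334 tested protein-coding genes hold a run in an exon. Most runs lay in the long genes. The 3 large ETS genes span 227.4 kb (Erg), 120.7 kb (Fli1) and 121.6 kb (Ets1), and of the 1305 tested protein-coding genes that span 100 to 300 kb, 100% held a run. The 6 forkhead and SOXF genes span 1.8 to 7.3 kb, and of the 2343 tested protein-coding genes that span less than 10 kb, 21.98% held a run. Per 100 kb there were 20.2 runs in Erg, 20.7 in Fli1, 9.87 in Ets1 and 29.7 in Foxf2, where the value rests on 2 runs in a short gene, against 10.5 over all tested protein-coding genes. A match to these letters is a description of the sequence and no binding site was measured.

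Levels of different genes were compared as CPM per kilobase of exon. In control mice Sox18 stood highest at 209 ± 57.9 (SD, n = 3) and Foxc1 lowest at 5.19 ± 2.23. Between them came Sox7 (59.5 ± 10.5), Ets1 (42.0 ± 7.66), Sox17 (38.2 ± 7.19), Foxf2 (25.8 ± 4.03), Fli1 (23.0 ± 7.27), Erg (13.2 ± 0.742) and Foxq1 (12.9 ± 2.29). Of the 8 pairs of neighbors in this order, 5 kept it in each of the 3 control libraries. Ets1 and Sox17, Foxf2 and Fli1, and Erg and Foxq1 kept it in only 2 of 3 control libraries, so their places are not set apart by these mice. With the length of the longest annotated transcript in place of all exonic sequence, Ets1 moved above Sox7 and Fli1 above Foxf2. The levels in TDP-43 iΔEC mice had the same order apart from Fli1 above Foxf2 and Foxq1 above Erg, which are pairs that were already unordered in control mice. By the means Sox18 was again highest (139 ± 57.1) and Foxc1 lowest (4.77 ± 1.72). In TDP-43 iΔEC mouse 3, however, Sox7 (74.4) stood just above Sox18 (73.7), and Foxq1 (6.28) below Foxc1 (6.70). By the group means the SOXF genes were 3 of the 4 most abundant members, beside Ets1. In single TDP-43 iΔEC mice this did not always hold, since Foxf2 (34.8) stood above Sox17 (31.1) in mouse 1 and Fli1 (38.9) above Sox17 (33.3) in mouse 2. By the control means each family held members that differed in level by more than 2-fold.

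**Figure D1:**
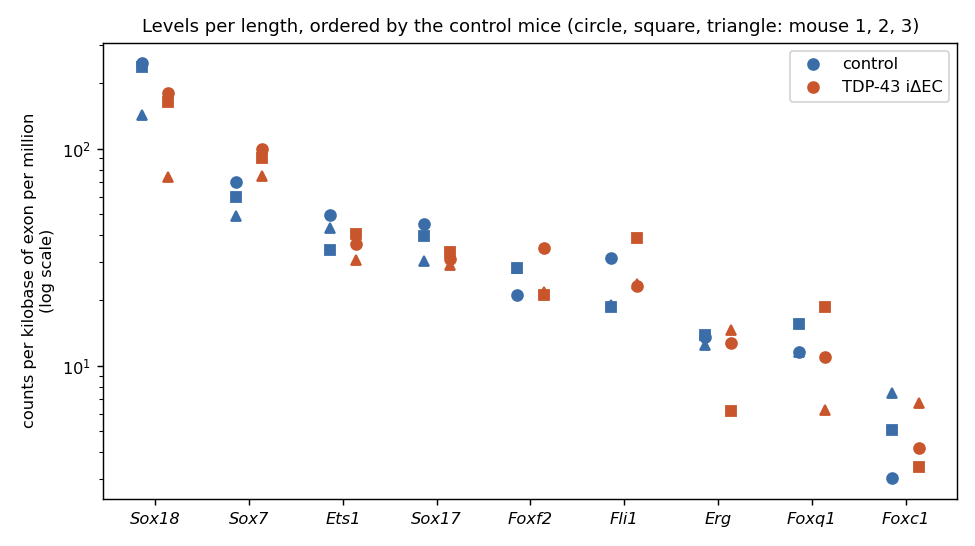
CPM per kilobase of exon (log scale) of the 9 genes in each mouse, in the order of the control means, with 1 point per mouse and mice 1, 2 and 3 drawn as circle, square and triangle. Sox18 lies above every other gene in all 3 control mice (142 to 247), and Foxc1 lies lowest (3.03 to 7.49).

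Setting TDP-43 iΔEC against control mice asked whether the factors that hold barrier identity changed when TDP-43 was removed from ECs. All 9 genes passed the filter on low counts, and 0 of them passed the threshold of an adjusted p of 0.05 in limma, where 0.137% of the 13107 tested genes did (0.0305% higher and 0.107% lower). The adjusted p values of the members ran from 0.527 to 0.920. At an unadjusted p under 0.05, limma had 3 of the 9 genes (Sox17, Sox18 and Ets1), all with lower values in TDP-43 iΔEC mice, where 5.0% of all tested genes were past it and lower, 4.26% past it and higher, and 9.27% past it in either direction. The other tools also left 0 members past the adjusted threshold. edgeR's quasi-likelihood test had 1 member at an unadjusted p under 0.05 (6.47% of all tested genes), with a lowest adjusted p of 0.712, and DESeq2 had 4 (8.62%), with a lowest adjusted p of 0.478. DESeq2 called 1.91% of the genes it tested and edgeR 0%.

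Normalized counts of the 2 groups did not overlap for 3 of the 9 members, against 15.0% of all tested genes. Sox7 was higher in all 3 TDP-43 iΔEC mice, as were 7.93% of all tested genes, and Sox17 and Ets1 were lower in all 3, as were 7.10%. The groups overlapped for the other 6. Before normalization, on the CPM scale, the groups also overlapped for Sox17 and Ets1 and were apart for Sox7 alone. With scaling by library size alone, however, the median log2 fold change of all tested genes was 0.18, beside -0.02 with TMM scaling. The fitted log2 fold change was below 0 for 7 members and above 0 for Sox7 and Fli1, with a median of -0.38 beside -0.02 over all tested genes. The sign was not fixed for 3 of them: Foxf2 turned positive with scaling by library size alone or to endothelial markers and without TDP-43 iΔEC mouse 2, Fli1 turned negative without control mouse 2 or TDP-43 iΔEC mouse 2, and Foxc1 was at 0.0014 without control mouse 3. No member was fitted at 2-fold or more in either direction. A 2-fold decrease lay inside the 95% interval of 4 members (Foxq1, Foxc1, Sox18 and Erg) and a 2-fold increase inside that of 0, so for the other 5 the interval covered neither.

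**Figure D2:**
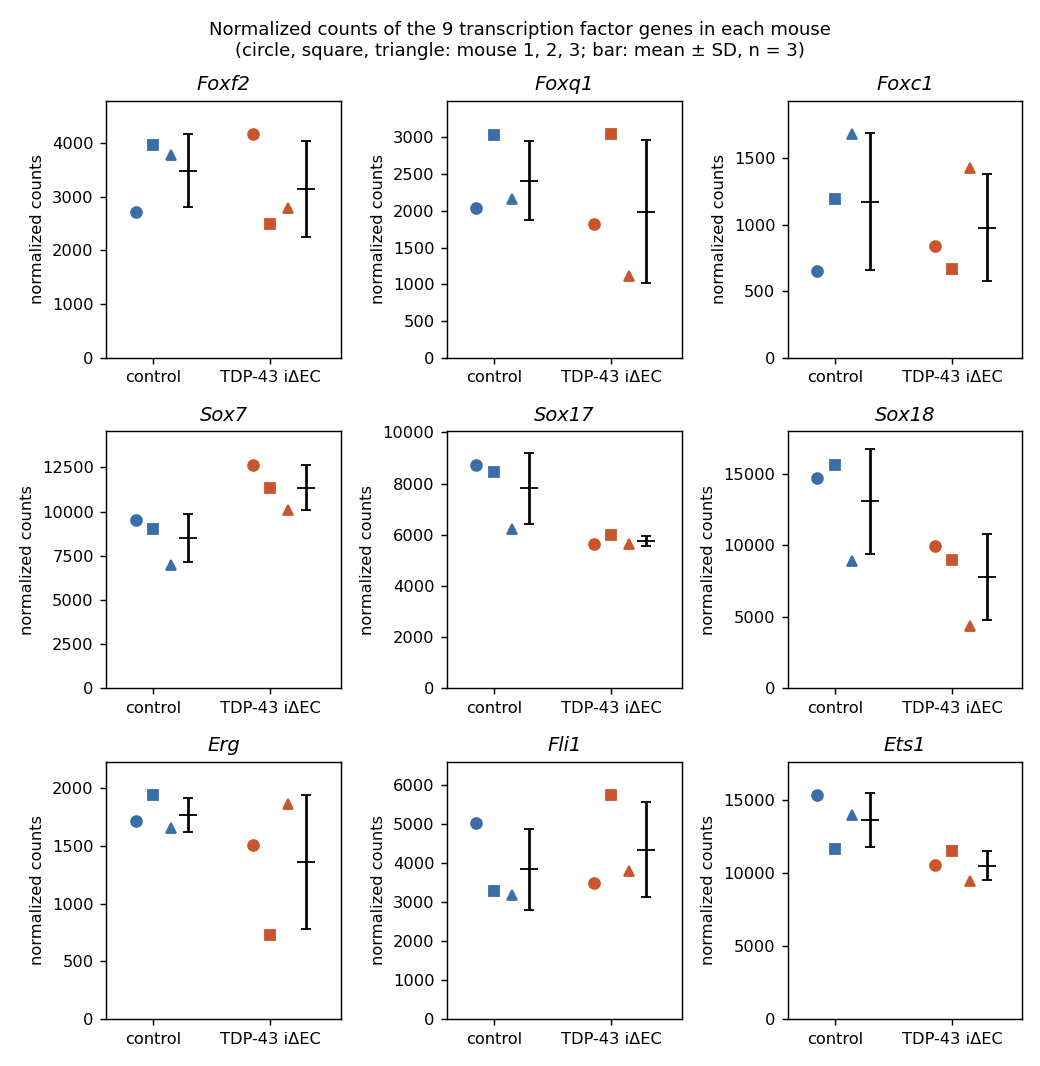
Normalized counts of each gene (vertical axis from 0, a separate scale for each panel) in the 3 control and 3 TDP-43 iΔEC mice, with mice 1, 2 and 3 as circle, square and triangle and a bar at the mean ± SD. The points of Sox7 lie higher in all TDP-43 iΔEC mice (10095 to 12639) than in any control mouse (6971 to 9520.1), those of Sox17 and Ets1 lie lower, and the groups of the other 6 genes overlap.

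**Figure D3:**
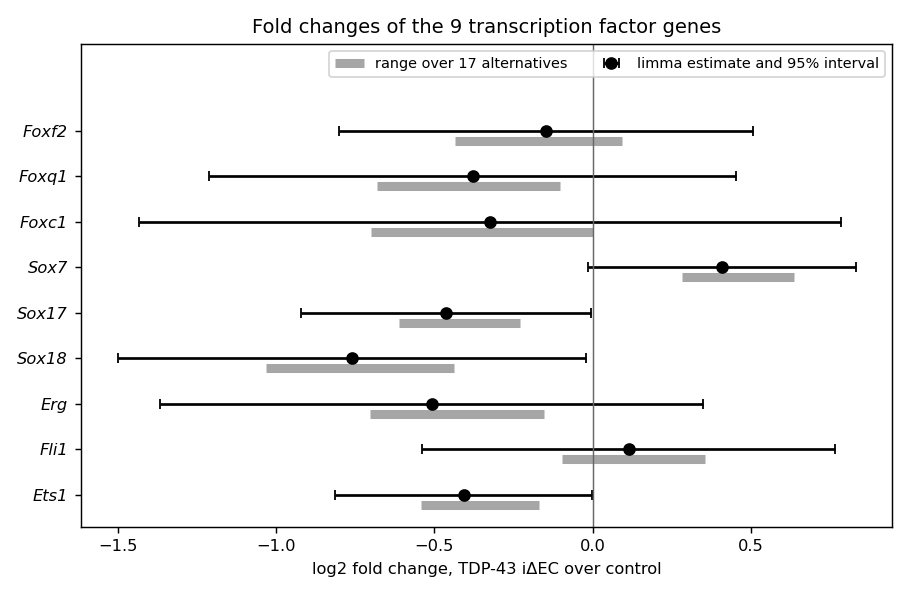
Log2 fold change of each gene, TDP-43 iΔEC over control, as the limma estimate with its 95% interval (black) and the range over the 17 alternative ways of processing (gray bar). The intervals of Sox17, Sox18 and Ets1 end just below 0, that of Sox7 starts at -0.01, and those of the other 5 genes reach well past 0 on both sides.

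The forkhead genes lie beside each other on chromosome 13, all on the plus strand: Foxq1 at chr13:31740117-31744959, Foxf2 at chr13:31809663-31816393, 64.7 kb further on, and Foxc1 at chr13:31990616-31996459, a further 174 kb away (GRCm39). Foxq1 and Foxc1 have 1 exon and Foxf2 has 2. Foxf2, a factor of brain endothelium and pericytes whose loss opens the blood-brain barrier, had 2712, 3966 and 3785 normalized counts among controls, against 4162, 2486 and 2784 in TDP-43 iΔEC mice. The highest value was in TDP-43 iΔEC mouse 1 and the lowest in TDP-43 iΔEC mouse 2, so the TDP-43 iΔEC values enclosed the control values. Means were 3488 ± 678 and 3144 ± 894 (SD, n = 3 each), and the log2 fold change was -0.15 (SE 0.29, 95% interval -0.80 to 0.51, limma adjusted p = 0.889).

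Foxq1, a forkhead factor found in CNS endothelium and controlled by Wnt/β-catenin signaling, had 2042, 3034 and 2156 normalized counts among controls, against 1818, 3039.8 and 1109.7 in TDP-43 iΔEC mice. In the deleted group, mouse 2 was level with the highest control, and mice 1 and 3 were below all controls. The log2 fold change was -0.38 (SE 0.37, 95% interval -1.21 to 0.45, limma adjusted p = 0.751), and it was -0.68 without TDP-43 iΔEC mouse 2 and -0.11 without TDP-43 iΔEC mouse 3. Foxc1, which is needed in vessels and in the mural cells and meninges around them, had 649.7, 1189 and 1678 normalized counts among controls, against 836, 670.2 and 1429 in TDP-43 iΔEC mice. It varied 2.58-fold among controls, the widest control range of the 9 genes, and its log2 fold change was -0.32 (SE 0.49, 95% interval -1.43 to 0.78, limma adjusted p = 0.846). In exact permutation tests of the normalized counts (two-sided, smallest possible p 0.1), p was 0.8 for Foxf2, 0.5 for Foxq1 and 0.7 for Foxc1.

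Foxf2 and Foxc1 are also expressed by mural cells and fibroblasts, so the markers of these cells are given beside them. The 8 mural cell markers (Pdgfrb, Rgs5, Acta2, Cspg4, Kcnj8, Abcc9, Notch3 and Higd1b) summed to 592, 492 and 949 CPM among controls, against 540.3, 1127 and 443 CPM in TDP-43 iΔEC mice, and 5 of 8 had a count in every library. The 5 fibroblast markers summed to 36.4, 35.4 and 40.8 CPM among controls, against 43.01, 43.9 and 12.8 CPM in TDP-43 iΔEC mice, with 1 of 5 found in every library. Neither sum separated the groups. Control mouse 3, highest in Foxc1, had the largest mural sum of the controls, but TDP-43 iΔEC mouse 2, highest in the mural sum of all, had the lowest Foxc1 of its group, and their part in these values was not tested.

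The genes around the forkhead cluster were also not past the threshold. Exoc2, a subunit of the exocyst and the nearest protein-coding gene before Foxq1, had 3208, 1599 and 1688 normalized counts among controls, against 3914, 2613 and 2614 in TDP-43 iΔEC mice. Gmds, an enzyme of GDP-fucose synthesis that ends 6.31 kb from Foxc1, had 967, 1283 and 1070.4 among controls, against 1112, 1493 and 1533 in TDP-43 iΔEC mice. Both overlapped between groups. The long noncoding gene 1700018A04Rik runs on the opposite strand over 3.22% of the exonic sequence of Foxf2 and 2.44% of that of Foxq1. It had 382, 432 and 310.0 normalized counts among controls, against 0, 181 and 272 in TDP-43 iΔEC mice (limma adjusted p = 0.564). All 3 TDP-43 iΔEC values were lower than any control, as for 7.10% of all tested genes. The sources used here do not state strand, so reads of these short stretches cannot be assigned to either gene.

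The 3 SOXF genes lie on separate chromosomes, Sox7 at chr14:64181006-64188352 (plus strand, 2 exons), Sox17 at chr1:4561151-4567784 (minus strand, 5 exons) and Sox18 at chr2:181311629-181313438 (minus strand, 2 exons). They are closely related activators that can stand in for each other in part during vessel development. Sox7 had 9520.1, 8984 and 6971 normalized counts among controls, against 12639, 11323 and 10095 in TDP-43 iΔEC mice. Every TDP-43 iΔEC value was above every control value, and this held on the CPM scale and with TMM and DESeq2 scaling. Means were 8492 ± 1344 and 11353 ± 1272 (SD, n = 3 each), a 1.34-fold difference. The limma log2 fold change was 0.41 (SE 0.19, 95% interval -0.01 to 0.83) with an unadjusted p of 0.0562 and an adjusted p of 0.548.

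Sox17, a factor of arterial endothelium that takes part in Notch and Wnt signaling of vessels, had 8734, 8471 and 6233 normalized counts among controls, against 5651, 5977 and 5632 in TDP-43 iΔEC mice. The 3 TDP-43 iΔEC values lay within 1.06-fold of each other and below control mouse 3, the lowest control. The log2 fold change was -0.46 (SE 0.20, 95% interval -0.92 to -0.005), with an unadjusted limma p of 0.0481 and an adjusted p of 0.536. Sox18, whose mutation causes lymphatic and hair defects, had 14679, 15608 and 8874 normalized counts among controls, against 9961, 8961 and 4368 in TDP-43 iΔEC mice. Control mouse 3 lay below TDP-43 iΔEC mice 1 and 2, so the groups overlapped. Its log2 fold change was -0.76 (SE 0.33, 95% interval -1.50 to -0.02), with an unadjusted limma p of 0.0447 and an adjusted p of 0.527, and without TDP-43 iΔEC mouse 3 it was -0.44. In exact permutation tests p was 0.1 for Sox7 and Sox17, the smallest that 3 against 3 mice allow, and 0.3 for Sox18.

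With ribosomal RNA and hemoglobin genes left out of the table, the log2 fold changes were again 0.41 for Sox7, -0.46 for Sox17 and -0.76 for Sox18, and -0.41 for the ETS gene Ets1. Overlapping genes limit Sox17 and Sox18 more than other members. The opposite-strand long noncoding gene Gm37587 covers 19% of the exonic sequence of Sox17 and had 96.5, 189 and 42.2 normalized counts among controls, against 0, 352 and 5.68 in TDP-43 iΔEC mice. The groups overlapped for Gm37587. With strand not stated, reads of the shared stretch cannot be assigned to either gene, and their part in the Sox17 values was not tested. Gm74574, also on the opposite strand, covers 25.8% of the exonic sequence of Sox18 and has no value here. Short opposite-strand overlaps also touch Foxf2 (Gm54768, 2.8%) and Fli1 (Gm69055, 2.81%).

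The SOXF genes were also set against each other within each library, which takes out the scaling between libraries. The log2 ratio of Sox7 to Sox17 counts was 0.12, 0.08 and 0.16 among controls, against 1.16, 0.92 and 0.84 in TDP-43 iΔEC mice. The control ratios lay close together, and the lowest TDP-43 iΔEC ratio was 0.68 above the highest control. Means were 0.12 ± 0.04 and 0.97 ± 0.17 (SD, n = 3 each), which is 1.09 Sox7 counts per Sox17 count among controls, against 1.97 in TDP-43 iΔEC mice. The log2 ratio of Sox7 to Sox18 was -0.62, -0.80 and -0.35 among controls, against 0.34, 0.34 and 1.21 in TDP-43 iΔEC mice, so Sox18 had more counts than Sox7 in every control mouse and fewer in every TDP-43 iΔEC mouse. The ratio of Sox17 to Sox18 overlapped between groups (-0.75, -0.88 and -0.51 in control, -0.82, -0.58 and 0.37 in TDP-43 iΔEC mice).

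**Figure D4:**
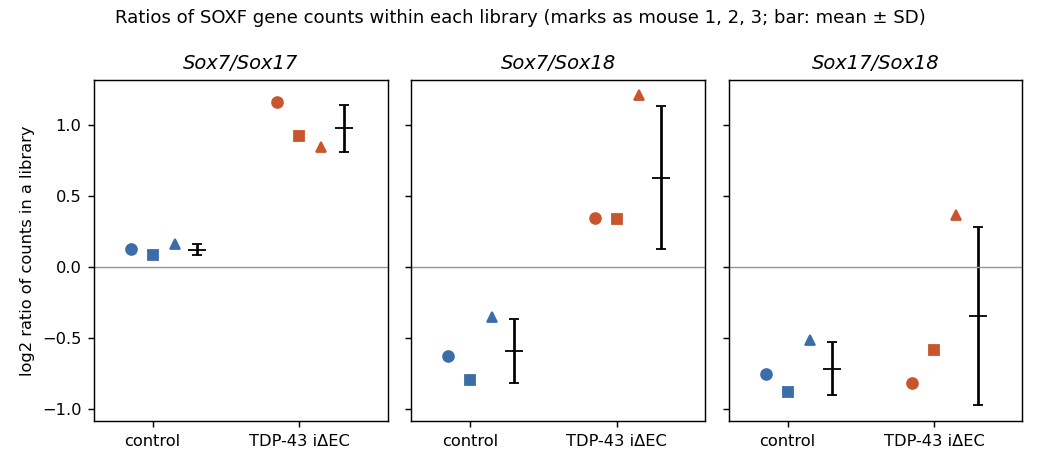
Log2 ratio of the counts of each pair of SOXF genes within each library, by group, with mice 1, 2 and 3 as circle, square and triangle and a bar at the mean ± SD. The ratios of Sox7 to Sox17 and of Sox7 to Sox18 lie higher in all 3 TDP-43 iΔEC mice than in any control mouse, and the ratios of Sox17 to Sox18 overlap.

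Expressed as a share of the summed SOXF level per length, Sox7 made up 19.3%, 17.8% and 22.0% among controls, against 32.1%, 31.5% and 42.0% in TDP-43 iΔEC mice. Sox18 made up 68.3%, 70.6% and 64.2% among controls, against 57.9%, 57.0% and 41.6% in TDP-43 iΔEC mice. The shares of both separated the groups. Because the shares add up to the whole, their opposite directions are not separate results. Sox17 made up 11.7% to 13.8% in control and 10.0% to 16.4% in TDP-43 iΔEC mice. The summed SOXF level itself overlapped, at 361, 337 and 222 among controls, against 310.3, 288 and 177 in TDP-43 iΔEC mice. These shares and ratios were singled out after their values were seen. Of all 36 pairs among the 9 genes, 5 had ratios that did not overlap between groups, or 13.9%, where 15.4% of all pairs among the 8982 genes whose counts reached 10 in each library did, so pairs of members were apart about as often as pairs of any genes. The exact permutation p of each of the 5 was 0.1, the smallest possible.

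The nearest protein-coding gene before Sox7 is Pinx1, an inhibitor of telomerase 23.7 kb away. It had 363, 411 and 295 normalized counts among controls, against 542, 667 and 1138 in TDP-43 iΔEC mice (limma adjusted p = 0.606). Pinx1 was thus higher without overlap, as were 7.93% of all tested genes. Tcea2, a transcription elongation factor 8.38 kb from Sox18, had 939, 486 and 506 among controls, against 268, 229 and 165 in TDP-43 iΔEC mice (limma adjusted p = 0.589). Tcea2 was thus lower without overlap, as were 7.10% of all tested genes. Mrpl15, a protein of the mitochondrial ribosome and the nearest protein-coding gene on the other side of Sox17 from Rp1, overlapped between groups (1945, 1581 and 1550.0 against 1645, 1509 and 3009.9), as did Rp1 at 0 to 129 normalized counts.

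Among the ETS genes, Fli1 and Ets1 are neighbors on chromosome 9 (Fli1 at chr9:32333500-32454157 on the minus strand with 9 exons, Ets1 at chr9:32547517-32669116 on the plus strand with 8) and their spans are 93.4 kb apart. Erg lies at chr16:95160028-95387452 on the minus strand with 10 exons, 115 kb from Ets2. Erg, a factor that ECs keep at a high level to hold their junctions and their quiescence, had 1719, 1937 and 1653 normalized counts among controls, against 1505, 724 and 1860.4 in TDP-43 iΔEC mice. The controls lay within 1.17-fold of each other, the narrowest control range of the 9 genes, and TDP-43 iΔEC mouse 2 alone was far below them. The log2 fold change was -0.51 (SE 0.38, 95% interval -1.37 to 0.35, limma adjusted p = 0.672) and the means were 1769.6 ± 149 and 1363 ± 581 (SD, n = 3 each). Without TDP-43 iΔEC mouse 2 the log2 fold change of Erg was -0.16, and without TDP-43 iΔEC mouse 1 it was -0.70.

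Fli1, which shares many endothelial binding sites with Erg, had 5035, 3288 and 3188 normalized counts among controls, against 3492, 5733 and 3803 in TDP-43 iΔEC mice. The mouse lowest in Erg, TDP-43 iΔEC mouse 2, was highest in Fli1. The log2 fold change was 0.11 (SE 0.29, 95% interval -0.54 to 0.77, limma adjusted p = 0.920). Ets1, a factor of angiogenic endothelium that is also abundant in lymphocytes, had 15299, 11631 and 13985 normalized counts among controls, against 10532, 11489 and 9467 in TDP-43 iΔEC mice. The groups did not overlap, but TDP-43 iΔEC mouse 2 came close to control mouse 2, the lowest control. Means were 13639 ± 1858 and 10496 ± 1012 (SD, n = 3 each), and the log2 fold change was -0.41 (SE 0.18, 95% interval -0.81 to -0.002) with an unadjusted limma p of 0.0493 and an adjusted p of 0.538. In exact permutation tests p was 0.3 for Erg, 0.5 for Fli1 and 0.1 for Ets1.

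Fli1 and Ets1 are also expressed by blood cells, so markers of leukocytes and microglia are given beside them. The part of such cells in the Fli1 and Ets1 values was not tested. The fluorochrome-coupled antibodies that the study lists with isotype controls include CD45, a marker of leukocytes, and TER-119, a marker of red blood cells, beside CD31. The 8 markers (Ptprc, Cx3cr1, P2ry12, Aif1, Tmem119, Csf1r, Cd3e and Itgam) summed to 4.47, 0 and 1.80 CPM among controls, against 0.244, 2.76 and 8.21 CPM in TDP-43 iΔEC mice. None had a count in every library, and Itgam was at 0 in all 6. Within libraries, Fli1 stood higher against Ets1 in TDP-43 iΔEC mice, with log2 ratios of -1.60, -1.82 and -2.13 among controls, against -1.59, -1.003 and -1.32 in TDP-43 iΔEC mice. The highest control ratio and the lowest TDP-43 iΔEC ratio were 0.01 apart. The ratio of Erg to Fli1 overlapped (-1.55, -0.76 and -0.95 in control, -1.21, -2.99 and -1.03 in TDP-43 iΔEC mice). Ets2, the ETS gene beside Erg, had 2805, 1356 and 2921 normalized counts among controls, against 1847, 2919 and 2828 in TDP-43 iΔEC mice, and Kcnj15, a potassium channel gene on the other side of Erg, had 0 to 636. The groups overlapped for both. The genes on the outer sides of the Fli1 and Ets1 pair, Kcnj1 and Kirrel3, had 0 or nearly 0 counts in every library.

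The genes whose log2 profile over the 6 libraries was nearest to that of each member, by the root mean square difference of centered log2 values, were Pdcd6 (0.0400) for Foxf2, Rcan3 (0.126) for Foxq1, Rps13-ps1 (0.123) for Foxc1, Nsfl1c (0.0710) for Sox7, Sorbs3 (0.0481) for Sox17, Fbxl20 (0.0641) for Sox18, Rpl35a-ps2 and Rpl35a-ps4 (both 0.108) for Erg, Tspan9 (0.0823) for Fli1 and Actb (0.0412) for Ets1. The second nearest were Ndufv2, Arhgap1, Ndufc1, Rbm5, Cgnl1, Samhd1, Osgep and Gm13803 for all but Erg, in the order of the list. No member was among the nearest genes of another member. These distances describe 6 libraries and say nothing of shared function. The profile nearest to Ets1 was that of Actb, the β-actin gene often used as a reference, which was fitted at a log2 fold change of -0.37. Cgnl1 (paracingulin, a protein of endothelial junctions), second nearest to Sox17, was fitted at -0.42. Genes picked for a near profile have near fold changes by the way they were picked, so these fitted values are no separate result.

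Related genes were taken from 5 lists of 117 genes, of which 75 were tested and 2 passed the adjusted threshold. Both belong to the list of endothelial genes with known ETS input, of which 19 of 19 were tested, 2 were called higher and 0 lower, and the median log2 fold change was -0.16. Angpt2, a ligand that destabilizes vessels by opposing Tie2, rose from 7823, 7415 and 4749.8 normalized counts in control to 18671, 26391 and 23770.0 in TDP-43 iΔEC mice (log2 fold change 1.74, SE 0.23, limma adjusted p = 0.0318). Icam1, an adhesion receptor for leukocytes, rose from 3275, 4358 and 2714 to 11157, 10503 and 14953 (1.78, SE 0.24, limma adjusted p = 0.0342). The groups did not overlap for either gene. In this list of 19 genes, 4 were higher and 3 lower without overlap, beside 7.93% and 7.10% of all tested genes. Both were singled out by the study on these same libraries, so they are no independent evidence about ETS targets. By immunostaining, the study also reported more Angpt2 and Icam-1 protein in spinal cord, brain and retinal vessels of TDP-43 iΔEC mice. Of the exonic sequence of Angpt2, 70.7% overlaps Mcph1 on the opposite strand. Both calls were lost with edgeR (adjusted p = 0.112 and 0.109), which called 0 of all tested genes, and whenever any single mouse was left out. DESeq2 kept both (adjusted p = 1.54e-09 for Angpt2 and 1.24e-08 for Icam1). The other 17 genes of the list gave log2 fold changes from -0.69 to 0.43. Flt1, which encodes the VEGF receptor VEGFR1, was at the low end and did not overlap between groups (72590, 65395 and 66007 in control, 44973, 43635 and 40657 in TDP-43 iΔEC mice). It missed the threshold in limma (adjusted p = 0.0635) and edgeR (0.353) and passed it in DESeq2 (8.06e-06). At the high end was Egfl7, a protein secreted by ECs (0.43, limma adjusted p = 0.450), and the Notch ligand Dll4 was at -0.53 (limma adjusted p = 0.572). Cdh5 (-0.09), Cldn5 (-0.22), Pecam1 (0.14) and Kdr (-0.26), genes of junctions and VEGF signaling, lay between them.

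**Figure D5:**
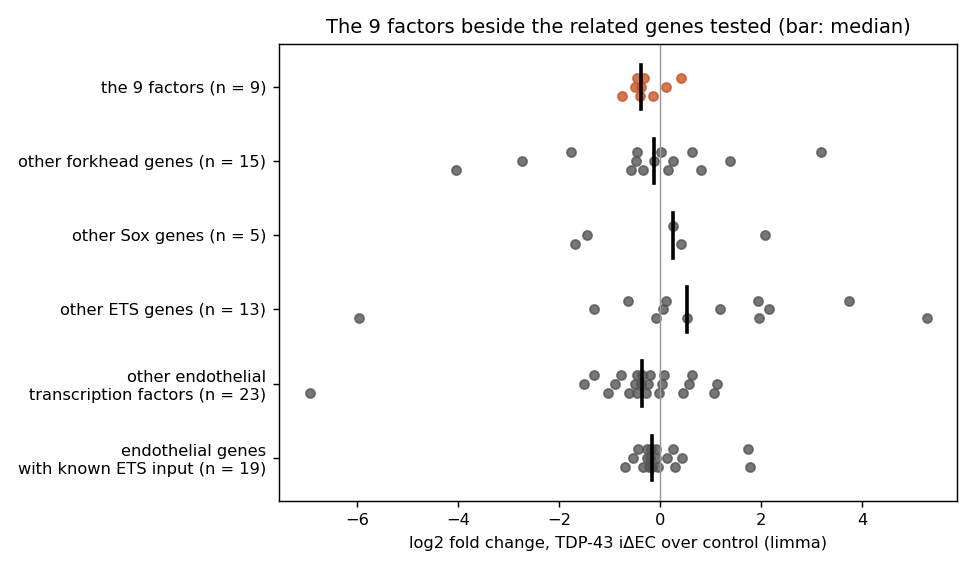
Log2 fold change (limma, TDP-43 iΔEC over control) of each tested gene in the 9 factors and the 5 related lists, with 1 point per gene and a bar at the median of each list. The 9 factors lie between -0.76 and 0.41, and the points of Angpt2 and Icam1, at 1.74 and 1.78, are the only 2 of the related genes past the threshold in limma.

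The rest of the 3 families is given for comparison. Of 35 other forkhead genes, 16 had no count in any library and 15 were tested, with 0 called and a median log2 fold change of -0.12. Foxj3 (528, 482 and 658 in control, 1003, 867 and 1147 in TDP-43 iΔEC mice) and Foxn2 (558, 548 and 631, then 1000.1, 701 and 1076) were higher in all TDP-43 iΔEC mice, with limma adjusted p values of 0.572 and 0.642. Of 16 other Sox genes, 6 had no count in any library and 5 were tested with 0 called and a median of 0.25. Sox9, a factor of glia and mesenchymal cells, was lower without overlap (611, 796 and 849.7 in control, 253, 388 and 115 in TDP-43 iΔEC mice, limma adjusted p = 0.536). Of all tested genes, 7.93% were higher and 7.10% lower without overlap.

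Of 23 other ETS genes, 8 had no count in any library and 13 were tested with 0 called and a median of 0.52. The groups did not overlap for Etv6, Etv5, Gabpa and Etv1, all higher in TDP-43 iΔEC mice with limma adjusted p values from 0.544 to 0.590. Of all tested genes, 7.93% were higher without overlap. For each of these, control mouse 2 stood far below the other controls (Etv6 at 40.9 against 1183 and 890.2, Etv5 at 46.3 against 218 and 389, Gabpa at 29.4 against 955 and 936, and Etv1 at 0 against 177 and 196). This is the library with the fewest genes with a count, and its part in the difference was not tested. Gabpa also shares 26.6% of its exonic sequence with Atp5pf on the opposite strand. Among the 9 members, control mouse 2 was the lowest control for Ets1 alone, at 11631 normalized counts.

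Of 24 other endothelial transcription factors, 23 were tested with 0 called and a median of -0.36. Bcl6b, a repressor of the Bcl6 family found in endothelium, was nearest to the threshold (1833, 1518 and 1129 in control, 3075, 3240.2 and 3132 in TDP-43 iΔEC mice), with a log2 fold change of 1.06 (SE 0.28, limma adjusted p = 0.308), and passed the threshold in DESeq2 alone (adjusted p = 0.0473). Epas1, which encodes the hypoxia-inducible factor HIF-2α, was lower without overlap (45374, 46583 and 38347 in control, 35553, 33160.0 and 32558 in TDP-43 iΔEC mice, log2 fold change -0.39, SE 0.12, limma adjusted p = 0.391). Heyl, a Notch target, had 433, 497 and 468 normalized counts among controls, against 0, 249 and 0 in TDP-43 iΔEC mice (limma adjusted p = 0.388). The groups did not overlap for these 3 genes, and none of the 3 passed the threshold in limma. In the whole list of 23 tested genes, 3 were higher and 4 lower without overlap. Over all tested genes the shares were 7.93% higher and 7.10% lower, or 15.0% in either direction. Among all 75 related genes tested, 10 had an unadjusted limma p under 0.05, 4 higher and 6 lower. Of all tested genes 9.27% did, 4.26% higher and 5.0% lower.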

How the data were processed

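The authors sorted ECs by FACS, prepared SMARTseq2 libraries from 0.2 to 3.1 ng of RNA with 15 or 20 PCR cycles, mapped reads to GRCm39 with STAR 2.7.8a and quantified genes with RSEM 1.3.0. They deposited expected counts per gene, which are whole numbers without normalization. PCR copies count as reads because no molecular identifiers are mentioned, and the strand setting is not given in the sources used here. Groups came from the labels of the samples. Counts were scaled by TMM, filtered with filterByExpr (edgeR 4.0.16) and fitted with limma 3.58.1 (voom, R 4.3.3) without covariates, as the paper's methods name none, and p values were adjusted by Benjamini-Hochberg over 13107 genes (threshold 0.05). Normalized counts used size factors of DESeq2 1.42.0. Exact permutation tests were two-sided. Gene positions, exon lengths, overlaps and repeats came from GRCm39 with GENCODE M39, which matched 98.7% of identifiers. Chi-square per degree of freedom was at least 172 for each of the 15 pairs of libraries. Each mouse is 1 sample, and litters are not given.

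The members and the lists of related genes and markers were chosen with earlier results of these data known. Named genes are Tardbp, the members, in each related list every gene past the threshold or otherwise up to 4 with the smallest unadjusted p among those whose groups did not overlap, the nearest protein-coding genes, overlapping genes, the 2 genes of nearest profile, and markers. Cdh5, Egfl7 and Dll4 were named after their values were seen. A gene that meets this rule is not reported here. The procedures were tested on simulated counts.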

Additional observations from a re-analysis of the deposited data

How the results depend on the processing

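No member passed the threshold under any of the 17 alternatives, and the lowest adjusted p of a member was 0.310 (Sox18, replicate block). Of 153 log2 fold changes, 147 kept the direction. The exceptions were Foxf2 with library size alone (0.036), scaling to endothelial markers (0.092) or without TDP-43 iΔEC mouse 2 (0.012), Fli1 without control mouse 2 (-0.0008) or TDP-43 iΔEC mouse 2 (-0.10), and Foxc1 without control mouse 3 (0.0014), and the cause was not tested. With each mouse left out in turn, Foxf2 ranged from -0.43 to 0.012, Foxc1 from -0.70 to 0.0014 and Fli1 from -0.10 to 0.33. Scaling by library size alone, scaling to endothelial markers and leaving out control mouse 2 moved the median of all genes to 0.18, 0.23 and -0.17, so the members are to be read against these shifts. Over all alternatives Sox7 ran from 0.28 to 0.64, Sox17 from -0.61 to -0.23, Sox18 from -1.03 to -0.44 and Ets1 from -0.54 to -0.17, with an unadjusted p under 0.05 in 8, 6, 7 and 5 of 17. Sox17 (-0.23) and Ets1 (-0.17) were nearest to 0 with scaling to endothelial markers, where the median of all genes was 0.23. The 5 markers used there had main log2 fold changes of -0.69 (Flt1), -0.26 (Kdr), -0.22 (Cldn5), -0.09 (Vwf) and 0.14 (Pecam1). Each alternative changed 1 choice, but DESeq2's test brings its own scaling and left 12916 genes with an adjusted p, and the filter was applied anew where a mouse was left out. With 1 control mouse left out, the order of member levels was drawn anew from the remaining control libraries. In that new order 5 to 7 of 8 neighboring pairs held in each remaining library, which is easier to reach with fewer libraries.

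The study, also with limma and voom, reported more altered genes in these libraries, and a strong decrease of Tardbp. Why its outcome differs from that here was not tested. Over all genes, 18 (4 higher, 14 lower) passed the threshold in the limma fit used here. The count was 0 with edgeR (848 at an unadjusted p under 0.05), 247 with DESeq2, 10 (4 higher, 6 lower) with library size alone, 41 (17 higher, 24 lower) with quantile normalization, 1 (higher) with scaling to endothelial markers, 76 with no filter, 39 with at least 10 counts in every library, 31 at an adjusted p under 0.1, and 0 to 13 with 1 mouse left out (control 1: 3, control 2: 10, TDP-43 iΔEC 1: 0, TDP-43 iΔEC 2: 3, TDP-43 iΔEC 3: 2). The 2 related genes became 0 with edgeR, 4 with DESeq2, 1 with scaling to endothelial markers, 1 with the replicate block, and 0 with any 1 mouse left out. The replicate numbers did not pair the mice (correlations of same-numbered deviations -0.06, -0.11 and -0.02, and no mouse correlated best with its own number), and with them as a replicate block 22 genes (3 higher, 19 lower) passed. Leaving out ribosomal RNA and hemoglobin genes was added after the data were seen and gave 14 genes. With 3 mice a group no exact test can go below p = 0.1.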
